A study of Mus musculus with 4 samples.

Results

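The genes described here were 34 cell cycle genes, taken by symbol from a list, of the 31253 genes measured. They were 14 genes of DNA replication and 20 genes of mitosis, and all 34 were found once in the files. Their counts were followed across immune cell classes gated on marker genes, and between WT and CaMKK2 KO mice. The rule takes them by name, without a threshold on a measured value, but the list was drawn up with earlier results of these data known. They held 174278 UMIs (unique molecular identifiers, which count captured RNA molecules), or 0.116% of all UMIs of the cells analysed.

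A dividing cell copies its DNA in S phase and then parts the copies in mitosis, and these steps draw on different genes. Before and during S phase the E2F factors switch on genes of the MCM helicase, the replication clamp and the supply of nucleotides. Cyclin B, its kinase, the spindle, the kinetochores and the machinery that triggers anaphase are made later, from genes that carry a CHR element and NF-Y boxes. Resting leukocytes in blood hardly transcribe either set, whereas activated lymphocytes and macrophages dividing within a tissue transcribe both.

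The cells were live CD45+ leukocytes sorted from tumor-bearing hemispheres 14 days after intracranial implantation of CT2a, a mouse glioma cell line. Donors were 4 WT mice and 4 CaMKK2 KO mice (CaMKK2-/-, a knockout in every cell of the body), both on the C57Bl/6 background, female, 8 to 12 weeks old per the study's methods, and carrying the same tumor. TotalSeqB hashtag antibodies marked each mouse, and all 4 mice with the same genotype shared 1 channel of the 10X 3′ v3.1 platform, so that genotype and channel cannot be told apart.

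Camkk2, the deleted gene, was measured at 26.6, 28.0, 36.5 and 27.1 CPM (a gene's UMIs scaled to the same total of UMIs in every mouse or class) in WT mice 1 to 4 and at 14.2, 17.6, 12.9 and 22.5 CPM in CaMKK2 KO mice 1 to 4, with no overlap between the groups. Whether the 3′ reads of this assay lie in the deleted part is not given in the sources used here. Below, 4 values of a genotype are always those of mice 1 to 4 in this order. After filters, 5149 WT and 5682 CaMKK2 KO cells remained, with 1038 to 1681 cells and 12238561 to 23046670 UMIs per mouse. Hashtag doublets were left out, as were the cells with the highest doublet scores, and 42 barcodes occurred in both libraries, 9 of them analysed in both. Classes carry the ending "-like" because they rest on marker genes. Checked on markers that the gate did not use, Trem2 had a UMI in 95.1% of TAM-like cells (tumor-associated macrophages) and 6.5% of T-like cells, and Lck in 92.7% of T-like and 2.5% of TAM-like cells. Prf1, a killer cell gene, had a UMI in 91.0% of NK-like cells. These markers separated closer classes less well. Trem2 had a UMI in 99.8% of microglia-like and 50.6% of cMono-like cells (classical monocytes), Lck in 82.7% of NK-like and Prf1 in 49.4% of T-like cells. The gate left 1357 cells (12.5%) without a class, and these held 7.65% of the members' UMIs.

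E2F letters were found mainly in promoters of replication genes and CHR letters mainly in promoters of mitosis genes. RefSeq gave a window of 250 bases before to 50 bases after the start for 29 of the 34 genes. Entries were missing for Stmn1, Mcm4, Tpx2, Ccna2 and Aurkb. The E2F motif was searched on both strands as TTTGGCGC, TTTCGCGC or TTTCCCGC, the CHR as TTTGAA and the NF-Y box as CCAAT, and matches were allowed to overlap. A gene was counted when any of its windows held a match. The E2F letters occurred in the windows of 7 of 13 replication genes (Mcm3, Mcm5, Mcm6, Mcm7, Pclaf, Uhrf1 and Cdca7) and of 1 of 16 mitosis genes (Cdk1). They occurred in 2.12% of all genes with a window and 1.84% of all 32851 windows. The CHR letters occurred in 1 of 13 replication genes (Mcm2) and in 11 of 16 mitosis genes, against 20.2% of all genes and 17.9% of all windows. CCAAT was present in 10 of 13 replication and 14 of 16 mitosis genes, and in 41.1% of all genes and 37.4% of all windows. These are matches of letters and were not read as binding sites.

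Stretches of 200 bases around the start (170 before and 30 after) are shown for the genes whose counts differed between WT and CaMKK2 KO mice in T-like or NK-like cells and had a window, leaving out Mcm2 and Tk1. These replication genes had no E2F letters: the window of Mcm2 held CHR and CCAAT letters, and that of Tk1 none of the letters searched. Rrm2, which is shown, had no E2F letters either and held CCAAT letters alone. Build GRCm38.p6 was used, and each stretch reads 5′ to 3′ on the strand of its gene. The replication genes are Mcm3 at chr1:20820283-20820482 on the minus strand, Mcm5 at chr8:75109339-75109538 on the plus strand, Mcm6 at chr1:128359676-128359875 on the minus strand and Rrm2 at chr12:24708084-24708283 on the plus strand. Capitals mark E2F, CHR and CCAAT letters on either strand, with 2 overlapping E2F matches in Mcm5 and in Mcm6.
Mcm3: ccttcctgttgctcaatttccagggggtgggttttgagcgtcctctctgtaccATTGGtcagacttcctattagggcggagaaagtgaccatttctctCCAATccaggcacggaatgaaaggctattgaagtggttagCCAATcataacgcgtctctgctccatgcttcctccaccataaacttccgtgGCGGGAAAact
Mcm5: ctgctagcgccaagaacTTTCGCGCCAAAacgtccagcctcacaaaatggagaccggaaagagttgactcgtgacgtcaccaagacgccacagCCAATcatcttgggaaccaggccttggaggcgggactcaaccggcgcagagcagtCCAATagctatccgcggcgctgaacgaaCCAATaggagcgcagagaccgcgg
Mcm6: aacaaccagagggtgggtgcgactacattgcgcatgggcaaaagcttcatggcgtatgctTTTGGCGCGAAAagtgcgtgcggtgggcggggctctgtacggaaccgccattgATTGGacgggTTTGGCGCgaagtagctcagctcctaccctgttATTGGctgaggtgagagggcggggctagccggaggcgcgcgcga
Rrm2: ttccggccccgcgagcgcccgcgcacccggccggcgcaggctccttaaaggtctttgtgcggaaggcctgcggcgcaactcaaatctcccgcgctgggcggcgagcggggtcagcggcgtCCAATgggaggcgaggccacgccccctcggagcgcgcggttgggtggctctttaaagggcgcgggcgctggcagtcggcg

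The mitosis genes are Ube2c at chr2:164769759-164769958 on the plus strand, Cenpf at chr1:189688057-189688256 on the minus strand, Ccnb1 at chr13:100786457-100786656 on the minus strand, Ccnb2 at chr9:70421525-70421724 on the minus strand and Prc1 at chr7:80294281-80294480 on the plus strand. CHR letters are present in all of these but Ccnb1, and Ccnb1 holds CCAAT letters alone.
Ube2c: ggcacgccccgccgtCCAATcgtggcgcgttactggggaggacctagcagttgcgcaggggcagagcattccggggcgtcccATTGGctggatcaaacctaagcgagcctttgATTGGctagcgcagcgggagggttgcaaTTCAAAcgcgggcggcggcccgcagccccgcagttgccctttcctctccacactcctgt
Cenpf: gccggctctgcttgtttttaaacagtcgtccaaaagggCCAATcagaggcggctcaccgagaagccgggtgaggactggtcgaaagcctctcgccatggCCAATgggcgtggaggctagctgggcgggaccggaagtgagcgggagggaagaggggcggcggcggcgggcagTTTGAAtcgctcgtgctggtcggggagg
Ccnb1: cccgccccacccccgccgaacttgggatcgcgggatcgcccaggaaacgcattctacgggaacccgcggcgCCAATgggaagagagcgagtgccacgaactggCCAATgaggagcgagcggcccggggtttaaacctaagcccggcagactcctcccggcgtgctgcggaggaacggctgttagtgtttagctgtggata
Ccnb2: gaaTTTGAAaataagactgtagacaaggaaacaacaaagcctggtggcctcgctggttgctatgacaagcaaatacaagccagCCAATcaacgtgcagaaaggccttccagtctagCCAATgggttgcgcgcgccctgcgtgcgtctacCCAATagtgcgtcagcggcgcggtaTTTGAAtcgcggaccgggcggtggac
Prc1: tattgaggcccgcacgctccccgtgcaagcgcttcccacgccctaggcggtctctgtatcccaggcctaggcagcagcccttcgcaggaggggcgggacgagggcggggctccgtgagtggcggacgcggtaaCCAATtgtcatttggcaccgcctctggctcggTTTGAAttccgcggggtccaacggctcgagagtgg

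**Figure D1:**
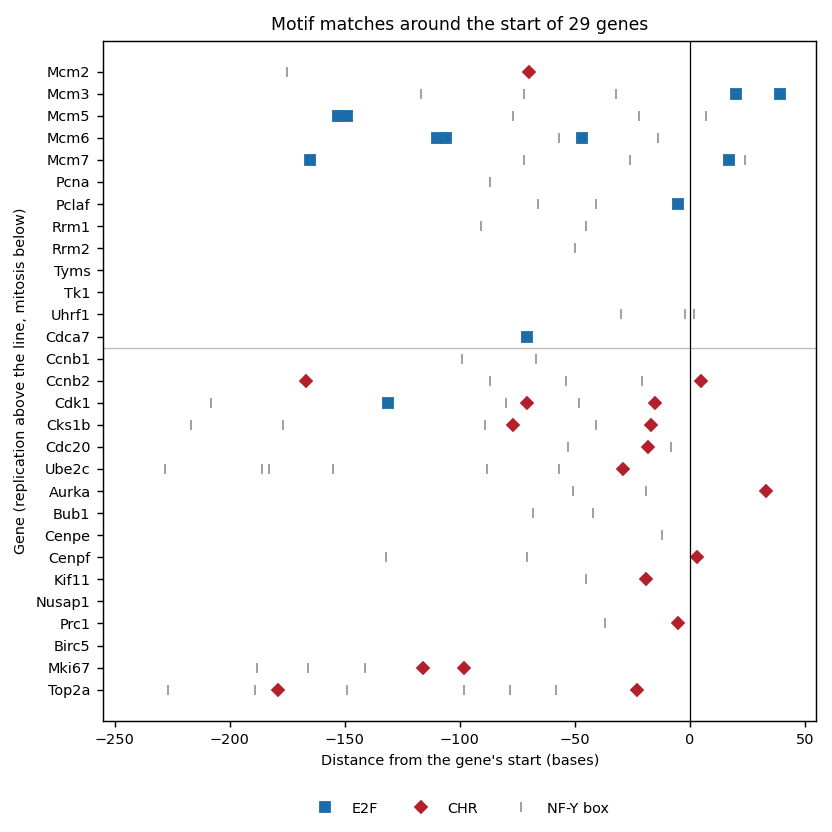
Position of motif matches around the start of the 29 genes with a RefSeq window (x axis, bases from the start of the first window listed for a gene; y axis, genes; squares, E2F; diamonds, CHR; bars, NF-Y box). E2F matches lie in 6 replication genes in these first windows, and 10 of the 11 mitosis genes with a CHR have one within 60 bases of the start.

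Among the classes ranked, CD8 T-like or Treg-like cells held the highest median level of all 34 genes. DC1-like cells (conventional dendritic cells) and pDC-like cells were not ranked. Summed replication genes had a median of 877 CPM in DC1-like (399 to 1390 over 5 mice) and 1104 CPM in CD8 T-like cells (783 to 1747). Summed mitosis genes had medians of 401 and 1631 CPM in these classes. The class with the highest median over mice was CD8 T-like for 6 replication and 8 mitosis genes, and Treg-like for 8 replication and 12 mitosis genes. Mki67, a protein that coats chromosomes in mitosis and marks dividing cells, had a median of 308 CPM in Treg-like (140 to 540 over 7 mice), 188 in CD8 T-like (131 to 463 over 8 mice), 101 in NK-like (87.6 to 170) and 85.2 CPM in TAM-like cells (27.5 to 129). The ranges of Treg-like and CD8 T-like cells overlapped, as did those of NK-like and TAM-like cells. In cMono-like cells (classical monocytes) the median was 9.49 CPM (4.27 to 20.8), and in ncMono-like cells (non-classical monocytes) it was 3.76 CPM (0 to 13.3 over 7 mice). Pcna, the sliding clamp that holds polymerases on DNA and also serves DNA repair, was spread more evenly, with medians of 187 CPM in Treg-like, 126 in TAM-like, 92.0 in ncMono-like and 72.8 CPM in cMono-like cells.

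**Figure D2:**
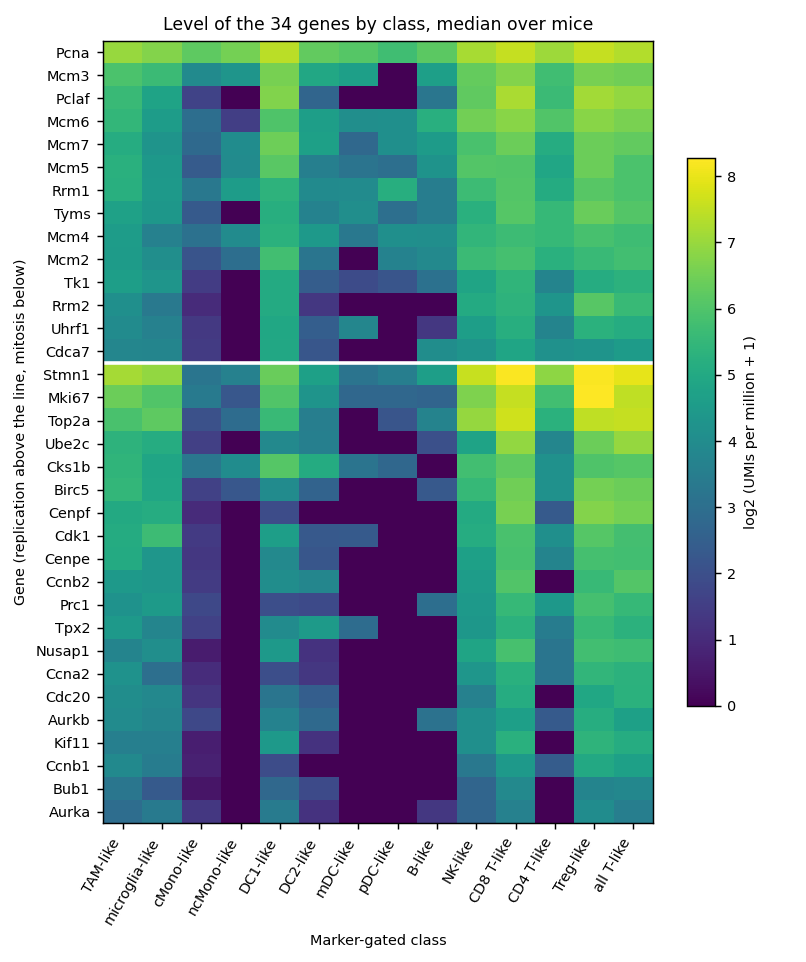
Level of the 34 genes (rows) in 14 classes (columns), as the median over mice of log2 (CPM + 1). CD8 T-like or Treg-like cells hold the highest value of each of the 34 genes among the classes ranked, which left out the DC1-like, pDC-like and all T-like columns. The summed mitosis genes of CD4 T-like cells (median 344.5 CPM) lie below those of NK-like cells (813 CPM), and mitosis genes are dark in monocyte-like, mDC-like, pDC-like and B-like cells. CD8, CD4 and Treg T-like cells are part of the all T-like column.

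The members separated macrophages from monocytes. Between TAM-like and cMono-like cells of the same 8 mice, 34 of 34 members were called, all higher in TAM-like cells, against 59.9% of the 11619 genes tested called in either direction and 40.3% called higher (edgeR quasi-likelihood test with mouse as a term, Benjamini-Hochberg over all genes). The median log2 fold was 2.51 over replication genes and 3.70 over mitosis genes, beside 0.21 over all genes. The smallest difference was that of Pcna (log2 fold 0.74, SE 0.07, adjusted p = 8.8e-07) and the largest that of Cenpf, a kinetochore protein (log2 fold 4.64, SE 0.24, adjusted p = 2.2e-09).

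The leading genes of each role are given as means over the mice. Mcm3, an MCM helicase subunit, had 56.9 ± 16.7 CPM in TAM-like and 15.2 ± 6.11 CPM in cMono-like cells (SD, n = 8). Birc5, survivin, which guides chromosome attachment with Aurora B, had 42.2 ± 20.5 and 2.38 ± 1.30 CPM (n = 8). Stmn1, which destabilises microtubules, had 121 ± 56.8 and 12.5 ± 8.83 CPM (n = 8). Each of these was higher in TAM-like cells in 8 of 8 mice, with log2 folds of 1.94, 4.02 and 3.19. Rrm1, the large subunit of ribonucleotide reductase, rose by 1.68, Uhrf1, which copies DNA methylation, by 2.98, Cks1b, a partner of cyclin-dependent kinases, by 2.19 and Ube2c, the ubiquitin enzyme of the anaphase promoting complex, by 4.12 on the log2 scale.

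Microglia, the resident macrophages of the brain, were compared next. Against microglia-like cells, 7 of 34 members were called, all higher in TAM-like cells (52.9% of 11545 genes called in either direction and 19.8% higher). They were 6 replication genes, namely the helicase subunits Mcm4 (log2 fold 0.76, SE 0.15, adjusted p = 0.000422), Mcm5 (0.63), Mcm6 (0.62) and Mcm7 (0.72), the clamp partner Pclaf (1.02) and the reductase subunit Rrm2 (1.10), and 1 mitosis gene, Cks1b (0.43). All 14 replication genes had positive differences (median 0.43) and 15 of 20 mitosis genes did (median 0.10), where the median of all genes was -0.16. The share of members called was below the share of all genes called. With TMM scaling, which called 5894 genes in all, 18 members were called. Leaving out WT mouse 1 lowered the count to 4, of which 3 were higher and 1 lower in TAM-like cells. Leaving out CaMKK2 KO mouse 4 raised the count to 12, all higher.

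Among killer lymphocytes, mitosis genes were higher in CD8 T-like than in NK-like cells. Between these classes 23 of 34 members were called, all higher in CD8 T-like cells, against 28.8% of 10359 genes in either direction and 13.9% called higher. The 23 were all 20 mitosis genes (median log2 fold 1.04) and 3 of 14 replication genes (median 0.41), namely Pclaf (0.94), the thymidylate synthase Tyms (0.56) and the thymidine kinase Tk1 (0.64). Mki67 averaged 219 ± 107 CPM in CD8 T-like and 108 ± 26.4 CPM in NK-like cells and was higher in 8 of 8 mice (log2 fold 0.95, SE 0.16, adjusted p = 0.000166). Pcna differed by 0.18 and did not pass the test (adjusted p = 0.344).

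CD8 T-like cells were also set against Treg-like cells, regulatory T cells. Of 34 members 3 were called over 7 mice, against 26.2% of 9363 genes called in either direction, 6.4% higher and 19.8% lower. Mcm2 was higher in CD8 T-like cells in 7 of 7 mice (log2 fold 0.50, SE 0.16, adjusted p = 0.0227), while Rrm2 (log2 fold -0.61, SE 0.23, adjusted p = 0.0499) and Mki67 (log2 fold -0.47, SE 0.17, adjusted p = 0.046) were higher in Treg-like cells in 5 of 7 mice. The medians of the replication and mitosis genes were 0.01 and -0.01. Leaving out WT mouse 2, CaMKK2 KO mouse 1 or CaMKK2 KO mouse 3 gave 1 called member, higher in CD8 T-like cells. Leaving out CaMKK2 KO mouse 2 gave 4, all higher in Treg-like cells.

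Counts summed over a class cannot tell more dividing cells from more RNA per cell, so cells were also counted. Each cell was thinned to 3000 UMIs, which left out 236 shallower cells, and a cell was counted when 3 or more replication genes, or 3 or more mitosis genes, had a UMI. The members occurred together: a median of 80.6% of a mitosis gene's thinned UMIs lay in cells with 3 or more other members (60.7% for Cks1b to 91.7% for Nusap1, a spindle protein). For replication genes the median was 52.6%, from 28.7% for Pcna to 88.6% for Pclaf. In all, 1497 of 10595 cells (14.1%) held 3 or more of the 34.

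Shares differed widely between classes. TAM-like cells passed the replication cut in 10.4% of 2750 cells and the mitosis cut in 8.62%, microglia-like cells in 8.92% and 7.68% of 482 cells. Of 1357 NK-like cells 12.6% and 5.31% passed, and of 736 CD8 T-like cells 20.0% and 14.0%. Treg-like cells passed in 13.1% and 12.5% of 312. DC1-like cells, conventional dendritic cells that present antigen to CD8 T cells, passed in 23.0% and 15.0% of 100 cells, with Wilson 95% intervals of 15.8% to 32.2% and 9.31% to 23.3% that cover counting error alone.

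Monocytes gave the background of these cuts. Of 2159 cMono-like cells 0.51% passed the replication cut and 0.19% the mitosis cut. Of 170 ncMono-like cells 1.76% passed the replication cut and 0 the mitosis cut, which allows a share of up to 1.76%. Median depths before thinning were 17089 UMIs in TAM-like, 11549 in cMono-like, 6937 in ncMono-like, 7693 in NK-like and 11413 in CD8 T-like cells. Without thinning, the median share over mice was 46.5% in TAM-like, 41.0% in NK-like and 39.7% in all T-like cells for replication genes, and 28.5%, 17.8% and 21.0% for mitosis genes. Many cells lay at the replication cut: in TAM-like cells 255 held 2 replication genes and 110 held 3, and in NK-like cells 204 held 2.

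Cells past a cut were divided into those with the replication set, the mitosis set or both. Of the 195 NK-like cells past either cut, 63.1% passed the replication cut alone, 24.6% both and 12.3% the mitosis cut alone. The values were 41.6%, 28.6% and 29.8% of 406 in TAM-like cells, 41.5%, 42% and 16.5% of 176 in CD8 T-like cells, and 31.6%, 40.4% and 28.1% of 57 in Treg-like cells. These are pooled cells and were not tested. Cells past a cut were deeper, with median UMIs of 21895 against 7118 in the other NK-like cells and 25800 against 16463 in the other TAM-like cells. They were also deeper among CD8 T-like (19219 against 10372) and Treg-like cells (15289 against 6302). These 2 classes were gated on any UMI of a few genes, which deeper cells show more readily. The part of this gate in their levels and shares was not tested.

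**Figure D3:**
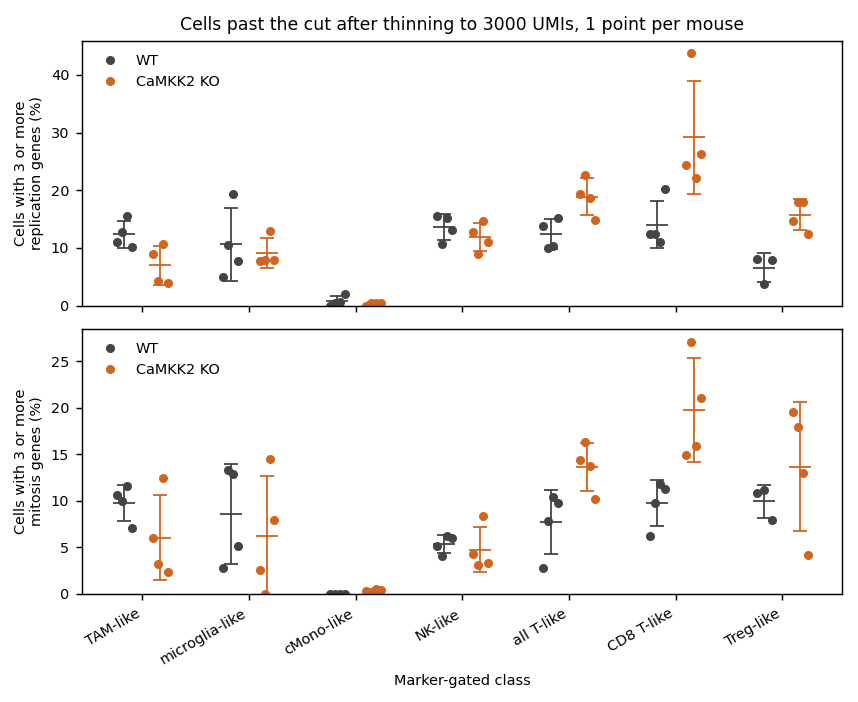
Share of cells with 3 or more replication genes (top) and mitosis genes (bottom) after thinning to 3000 UMIs, 1 point per mouse with at least 10 cells, with the mean and SD of a genotype. CD8 T-like CaMKK2 KO mice lie above the WT mice in both panels (22.2% to 43.8% against 11.1% to 20.2% for replication genes). TAM-like CaMKK2 KO mice lie lower on average. Of these, CaMKK2 KO mouse 3 lies among the WT values for replication genes (10.6%) and above all of them for mitosis genes (12.5%). All T-like cells include the CD8 and Treg T-like cells.

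Between the genotypes, 32 of 34 members had a negative edgeR log2 fold (lower in CaMKK2 KO mice) in TAM-like cells, but no member was called. Over all genes, 2.83% of 11168 were called in either direction. Here and below, counts of members with higher or lower values between genotypes go by the sign of this log2 fold. At an unadjusted p under 0.05 there were 2 of 34 members and 2235 of 11168 genes. DESeq2, TMM scaling and limma on cells of equal weight also called 0 members. The median log2 fold was -0.51 for replication and -0.35 for mitosis genes, beside -0.08 for all genes, and the lowest adjusted p was that of Pcna (log2 fold -0.50, SE 0.14, adjusted p = 0.0969). Pcna was measured at 124, 143, 159 and 135 CPM in WT mice and 98.4, 86.6, 127 and 81.9 CPM in CaMKK2 KO mice. Of these, CaMKK2 KO mouse 3 alone reached into the WT range.

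Mki67 in TAM-like cells was measured at 121, 129, 83.8 and 86.7 CPM in WT mice and 49.9, 49.6, 122 and 27.5 CPM in CaMKK2 KO mice (log2 fold -0.72, SE 0.36, adjusted p = 0.297). Stmn1 had 143, 154, 167 and 138 CPM in WT mice and 76.5, 59.5, 196 and 36.3 CPM in CaMKK2 KO mice. In both genes CaMKK2 KO mouse 3 lay within or above the WT mice and the other 3 CaMKK2 KO mice below all of them. Ube2c was 1 of the 2 members with a positive difference, at 34.9, 56.1, 44.0 and 31.8 CPM in WT mice and 27.1, 51.5, 88.8 and 15.6 CPM in CaMKK2 KO mice. Summed over the 20 mitosis genes, the levels were 768, 880, 809 and 608 CPM in WT mice and 413, 454, 1094 and 220 CPM in CaMKK2 KO mice. Without CaMKK2 KO mouse 3, 14 members were called, all lower in CaMKK2 KO mice, and no other single mouse changed the count of 0. The share of all genes called without this mouse is not given here, so the 14 were not set against it.

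The other genes with the most UMIs of their roles were also highest in CaMKK2 KO mouse 3 among the CaMKK2 KO TAM-like cells. Mcm3 had 60.7, 69.3, 81.1 and 55.1 CPM in WT mice and 58.0, 34, 64.9 and 32.1 CPM in CaMKK2 KO mice. Rrm1 had 38.8, 40.4, 45.2 and 33.6 CPM in WT mice and 26.6, 21.9, 42.3 and 18.1 CPM in CaMKK2 KO mice. Uhrf1 had 15.0, 18.8, 23.7 and 14.6 CPM in WT mice and 11.4, 7.36, 20.6 and 4.66 CPM in CaMKK2 KO mice. In these 3 replication genes the lowest value was that of CaMKK2 KO mouse 4 and the groups overlapped. Cks1b had 44.8, 44.1, 59.1 and 38.9 CPM in WT mice and 34.9, 29.4, 61.3 and 19.2 CPM in CaMKK2 KO mice. Birc5 had 55.3, 51.7, 55.5 and 35.2 CPM in WT mice and 25.8, 29.02, 74.3 and 10.9 CPM in CaMKK2 KO mice. In both mitosis genes CaMKK2 KO mouse 3 was above every WT mouse.

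Monocyte markers moved with this comparison. The 5 cMono markers summed to 375 to 1039 CPM in TAM-like cells of WT mice and to 1001 to 3658 CPM in those of CaMKK2 KO mice, with CaMKK2 KO mouse 3 lowest among the latter at 1001 CPM. None of the 5 was at 0, and their part in the result was not tested. The 5 T markers summed to 9.80 to 12.8 CPM in WT and 17.8 to 21.6 CPM in CaMKK2 KO mice with none at 0, and the 7 TAM markers to 17590 to 18840 and 13990 to 17870 CPM. Of 10 markers of tumor and brain cells Olig2 was at 0, and the list summed to 35.7 to 42.2 CPM in WT and 27.1 to 39.6 CPM in CaMKK2 KO mice.

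The other myeloid classes that were fitted, microglia-like, cMono-like and DC2-like cells, gave no called member by edgeR. The ncMono-like, DC1-like, mDC-like, pDC-like and Neut-like (neutrophil) cells were not fitted with edgeR between genotypes. In microglia-like cells 33 members were tested and 0 called (1.52% of 9064 genes), with 1 at an unadjusted p under 0.05 (1308 of all genes). The 14 replication genes were lower in CaMKK2 KO mice with a median log2 fold of -0.43. In cMono-like cells 22 members passed the filter and 0 were called (1.18% of 9750 genes), with 2 at an unadjusted p under 0.05 (1481 of all genes). In DC2-like cells 14 passed over 7 mice, CaMKK2 KO mouse 4 having under 10 cells. Of these, 0 were called (0.483% of 6420 genes), with 2 at an unadjusted p under 0.05 (632 of all genes). DESeq2 and limma also called 0 in these 3 classes.

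NK-like cells gave 6 called members, in opposite directions for the 2 sets. They were 1 replication gene lower and 5 mitosis genes higher in CaMKK2 KO mice, where 5.57% of 9699 genes were called in either direction, 3.70% higher and 1.87% lower. The 14 replication genes all had lower values in CaMKK2 KO mice (median log2 fold -0.29), while 17 of 20 mitosis genes had higher ones (median 0.66), beside 0.07 for all genes.

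Mcm6 (ENSMUSG00000026355), a helicase subunit, was lower in CaMKK2 KO mice, at 96.3, 134, 134 and 121 CPM in WT mice and 77.1, 59.3, 84.7 and 79.8 CPM in CaMKK2 KO mice (log2 fold -0.70, SE 0.14, adjusted p = 0.00703). The groups did not overlap. Here and below, called genes were picked by a small p in these same mice, so a lack of overlap adds no support. It was called in 16 of 17 alternative settings. Mcm3, the helicase subunit with the most UMIs, had 84.1, 86.3, 83.0 and 67.2 CPM in WT mice and 75.3, 62.0, 87.1 and 41.9 CPM in CaMKK2 KO mice and overlapped between the groups. Pcna had 124, 154, 197 and 159 CPM in WT mice and 135, 146, 134 and 142 CPM in CaMKK2 KO mice. The WT values of Pcna spanned those of CaMKK2 KO mice.

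Ube2c (ENSMUSG00000001403), which helps destroy cyclin B at anaphase, had the largest difference, at 17.4, 24.2, 17.1 and 24.8 CPM in WT mice and 28.4, 59.8, 92.4 and 170 CPM in CaMKK2 KO mice (log2 fold 1.95, SE 0.37, adjusted p = 0.00543). All CaMKK2 KO mice were above all WT mice, and CaMKK2 KO mouse 4 was furthest away. It too was called in 16 of 17 settings. Cenpf (ENSMUSG00000026605) had 39.4, 22.2, 23.2 and 20.6 CPM in WT mice and 25.9, 58.0, 98.4 and 56.8 CPM in CaMKK2 KO mice (log2 fold 1.30, SE 0.30, adjusted p = 0.0198). Here CaMKK2 KO mouse 1 lay among the WT mice, of which WT mouse 1 was highest.

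The mitotic cyclins and the midzone protein Prc1 completed the list. Ccnb1 (ENSMUSG00000041431), cyclin B1, was measured at 11.4, 6.06, 5.22 and 5.25 CPM in WT mice and 8.02, 9.96, 26.2 and 32.4 CPM in CaMKK2 KO mice (log2 fold 1.48, SE 0.41, adjusted p = 0.0431). Ccnb2 (ENSMUSG00000032218), cyclin B2, had 24.3, 11.6, 19.0 and 15.8 CPM in WT mice and 21.6, 27.6, 46.2 and 39.2 CPM in CaMKK2 KO mice (log2 fold 0.99, SE 0.25, adjusted p = 0.0296). Prc1 (ENSMUSG00000038943), which bundles microtubules between the parting chromosomes, had 18.2, 14.6, 22.8 and 16.9 CPM in WT mice and 19.7, 30.8, 50.8 and 31.1 CPM in CaMKK2 KO mice (log2 fold 0.94, SE 0.25, adjusted p = 0.0361). In all 3 genes CaMKK2 KO mouse 1 fell within the WT range, and the other 3 CaMKK2 KO mice lay above it except for CaMKK2 KO mouse 2 in Ccnb1. These 3 were called in 10, 9 and 7 of 17 settings.

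Not all mitosis genes moved in NK-like cells. Mki67 had 89.5, 105, 98.7 and 104 CPM in WT mice and 87.6, 96.4, 170 and 112 CPM in CaMKK2 KO mice (log2 fold 0.26, SE 0.17, adjusted p = 0.437), and only CaMKK2 KO mice 3 and 4 were above the WT mice. Stmn1 had 155, 212, 234 and 195 CPM in WT mice and 181, 166, 220 and 186 CPM in CaMKK2 KO mice. Birc5 had 48.5, 30.8, 47.4 and 34.2 CPM in WT mice and 34.5, 43.0, 73.4 and 63.5 CPM in CaMKK2 KO mice. Both overlapped between the groups. Cks1b had 58.4, 52.5, 58.3 and 53.3 CPM in WT mice and 37.0, 44.4, 66.0 and 50.02 CPM in CaMKK2 KO mice, with CaMKK2 KO mice on either side of the WT range.

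Rrm1 and Uhrf1, the leading genes of nucleotide supply and of the copying of chromatin, overlapped as well. Rrm1 had 44.7, 48.0, 65.0 and 57.4 CPM in WT mice and 54.3, 48.4, 51.0 and 39.2 CPM in CaMKK2 KO mice. Uhrf1 had 22.7, 24.2, 36.0 and 23.3 CPM in WT mice and 27.1, 13.6, 25.8 and 10.8 CPM in CaMKK2 KO mice. The summed mitosis genes reached 678, 780, 874 and 751 CPM in WT mice and 730, 846, 1336 and 1187 CPM in CaMKK2 KO mice. The share of thinned cells past the mitosis cut was 5.37% ± 1.01 in WT and 4.77% ± 2.47 in CaMKK2 KO mice (SD, n = 4 each), and the share past both cuts was 4.35% ± 0.37 and 2.86% ± 1.17 with no overlap. Without thinning the shares past both cuts overlapped, at 17.1% to 18.6% in WT and 4.26% to 19.6% in CaMKK2 KO mice, with CaMKK2 KO mouse 3 above every WT mouse. The unthinned shares past the mitosis cut were 21.6%, 18.4%, 17.2% and 18.8% in WT and 13.3%, 8.65%, 22.9% and 6.38% in CaMKK2 KO mice. All CaMKK2 KO mice but mouse 3 were thus below every WT mouse in this share, and CaMKK2 KO mouse 4 had 94 NK-like cells. Unthinned shares rise with depth, which was higher in WT NK-like cells. After thinning the shares past the mitosis cut overlapped, at 4.03% to 6.25% in WT and 3.13% to 8.39% in CaMKK2 KO mice. The higher summed levels did not come with a larger mean share of cells past the mitosis cut.

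NK-like cells were deeper in WT mice, with a median of 9375 UMIs against 6659 in CaMKK2 KO mice, and the 5 cMono markers summed to 644 to 877 CPM in WT and 1098 to 1188 CPM in CaMKK2 KO mice with none at 0. The 5 T markers summed to 192 to 285 and 202 to 296 CPM with none at 0. The part of depth and of these markers in the NK-like result was not tested. With TMM scaling 3 members were called, 2 higher and 1 lower in CaMKK2 KO mice, and 445 genes in all. Without WT mouse 2 there were 2 called members, 1 higher and 1 lower. Without WT mouse 3 or CaMKK2 KO mouse 4 there were 3, 2 higher and 1 lower. Without WT mouse 4 there were 3, 1 higher and 2 lower. Without CaMKK2 KO mouse 3 there were 4, 2 higher and 2 lower. With cells given equal weight (limma) 0 members and 286 genes in all were called.

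**Figure D4:**
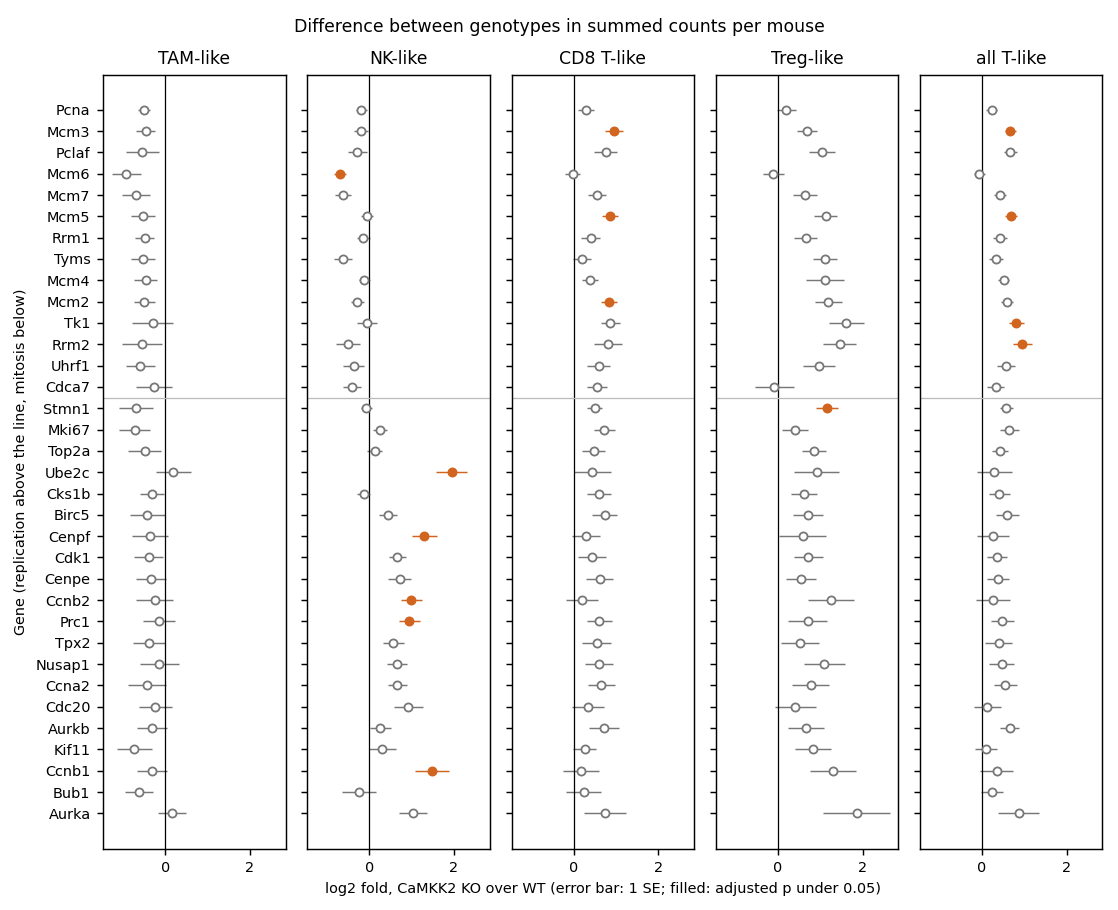
log2 fold of CaMKK2 KO over WT for the 34 genes in 5 classes (x axis; bars, 1 SE; filled points, adjusted p under 0.05 by edgeR). Members lie mostly left of 0 in TAM-like cells and right of 0 in T-like cells, while NK-like cells have replication genes left and most mitosis genes right of 0; all T-like cells include the CD8 and Treg T-like cells.

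In T-like cells most members had higher values in CaMKK2 KO mice. In CD8 T-like cells 33 of 34 members had higher values in CaMKK2 KO mice, with medians of 0.57 for replication and 0.53 for mitosis genes and 0.06 for all genes, and 3 members were called, all higher (1.48% of 8870 genes in either direction, 0.789% higher). Each was a subunit of the MCM helicase, which opens the DNA ahead of the fork.

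Mcm3 (ENSMUSG00000041859) had 110, 70.2, 58.2 and 75.0 CPM in WT mice and 109, 167, 102 and 199 CPM in CaMKK2 KO mice (log2 fold 0.94, SE 0.21, adjusted p = 0.0326). Mcm2 (ENSMUSG00000002870) had 55.1, 38.1, 36.9 and 42.8 CPM in WT mice and 62.7, 90.8, 57.5 and 92.5 CPM in CaMKK2 KO mice (log2 fold 0.84, SE 0.19, adjusted p = 0.0326). Mcm5 (ENSMUSG00000005410) had 55.1, 52.8, 52.5 and 57.1 CPM in WT mice and 91.2, 140, 72.1 and 99.6 CPM in CaMKK2 KO mice (log2 fold 0.86, SE 0.18, adjusted p = 0.0258). The groups did not overlap in Mcm2 and Mcm5, and in Mcm3 WT mouse 1, with 16 cells, lay above CaMKK2 KO mice 1 and 3. The 3 calls depended on the mice: without WT mouse 2, WT mouse 3, WT mouse 4 or CaMKK2 KO mouse 4 there were 0, and without CaMKK2 KO mouse 2 there was 1. DESeq2 and limma also called 0 members, with 108 and 21 genes called in all.

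No mitosis gene was called in CD8 T-like cells by edgeR. Mki67 had 187, 131, 168 and 188 CPM in WT mice and 220, 463, 256 and 140 CPM in CaMKK2 KO mice. Ube2c had 55.1, 82.9, 203 and 130 CPM in WT mice and 142, 401, 111 and 33.2 CPM in CaMKK2 KO mice. CaMKK2 KO mouse 2 was highest in both, and CaMKK2 KO mouse 4 lay within the WT range of Mki67 and below it in Ube2c. Stmn1 had 298, 176, 216 and 294 CPM in WT mice and 318, 442, 311 and 282 CPM in CaMKK2 KO mice. Birc5 had 71.7, 55.5, 96.8 and 86.2 CPM in WT mice and 120, 243, 90.5 and 64.0 CPM in CaMKK2 KO mice. Cks1b had 66.1, 54.2, 65.1 and 83.9 CPM in WT mice and 88.9, 187, 85.1 and 40.3 CPM in CaMKK2 KO mice. These 3 overlapped between the groups, with CaMKK2 KO mouse 2 highest in each.

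Of the replication genes outside the helicase, Pcna had 187, 135, 130 and 184 CPM in WT mice and 192, 209, 122 and 256 CPM in CaMKK2 KO mice. CaMKK2 KO mouse 3 was below every WT mouse in Pcna. Rrm1 had 60.6, 43.5, 62.8 and 70.2 CPM in WT mice and 69.0, 123, 55.3 and 75.9 CPM in CaMKK2 KO mice. Uhrf1 had 33.1, 22.1, 20.2 and 41.0 CPM in WT mice and 37.0, 59.8, 28.7 and 59.3 CPM in CaMKK2 KO mice. Both overlapped between the groups.

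Counted as cells, 14.0% ± 4.13 of WT and 29.2% ± 9.86 of CaMKK2 KO CD8 T-like cells passed the replication cut (SD, n = 4 each). The mitosis cut was passed by 9.77% ± 2.51 and 19.7% ± 5.58. Neither overlapped between the groups, and no test was run because the cuts are scores over the members. In ncMono-like cells, the reference, 3.42% of cells over 3 WT mice and 1.47% over 4 CaMKK2 KO mice passed the replication cut and 0 the mitosis cut. Without thinning, 55.3% to 65.3% of CaMKK2 KO and 43.8% to 51.6% of WT CD8 T-like cells held 3 or more replication genes, which did not overlap. Without thinning, 27.6% to 46.9% and 12.5% to 29.8% held 3 or more mitosis genes, which overlapped. CD8 T-like cells had a median of 10832 UMIs in WT and 12219 in CaMKK2 KO mice.

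Markers of other cells differed between the CD8 T-like cells of the genotypes. The 5 NK markers summed to 149 to 299 CPM in WT and 236 to 432 CPM in CaMKK2 KO mice, and the 5 cMono markers to 1042 to 1396 and 1235 to 2765 CPM. The 5 ncMono markers summed to 8.33 to 15.4 and 34.2 to 52.6 CPM. Foxp3 was at 0 because the gate leaves out cells with a Foxp3 UMI, and the 4 red cell genes were at 0. The part of these markers in the result was not tested.

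In Treg-like cells, 31 of 33 members tested had higher values in CaMKK2 KO mice, over 3 WT and 4 CaMKK2 KO mice, WT mouse 1 having under 10 cells. The call was that of Stmn1 (ENSMUSG00000028832) alone (0.833% of 6365 genes in either direction, 0.283% higher), at 106, 148 and 249.2 CPM in WT mice 2 to 4 and 515, 345, 332 and 299 CPM in CaMKK2 KO mice (log2 fold 1.16, SE 0.26, adjusted p = 0.0375). Every CaMKK2 KO mouse was above every WT mouse. The median log2 fold was 1.01 for replication and 0.72 for mitosis genes, beside -0.03 for all genes. Leaving out WT mouse 2, CaMKK2 KO mouse 1 or CaMKK2 KO mouse 3 ended the call, and leaving out CaMKK2 KO mouse 4 gave 5 called members. The 4 Treg markers summed to 4850 to 5818 CPM in these WT mice and 2760 to 4039 CPM in CaMKK2 KO mice, and the part of this in the result was not tested.

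Over all T-like cells, 4 members were called, all replication genes higher in CaMKK2 KO mice (1.89% of 9886 genes in either direction, 1.16% higher). Mcm3 had 80.8, 65.7, 58.0 and 73.2 CPM in WT mice and 97.9, 123, 94.2 and 112 CPM in CaMKK2 KO mice (log2 fold 0.66, SE 0.13, adjusted p = 0.019). Mcm5 had 51.7, 48.8, 52.9 and 51.6 CPM in WT mice and 83.2, 105, 70.2 and 68.2 CPM in CaMKK2 KO mice (log2 fold 0.69, SE 0.15, adjusted p = 0.0307). The called genes were picked by a small p in these same mice, so the lack of overlap between the groups adds no support. The WT values of Mcm5 lay close together. The nucleotide genes were Tk1 (ENSMUSG00000025574), with 19.4, 21.3, 33.7 and 32.5 CPM in WT mice and 57.1, 53.9, 43.4 and 44.8 CPM in CaMKK2 KO mice (log2 fold 0.81, SE 0.18, adjusted p = 0.033), and Rrm2 (ENSMUSG00000020649), with 45.3, 20.3, 40.9 and 33.7 CPM in WT mice and 69.9, 84.0, 48.6 and 49.5 CPM in CaMKK2 KO mice (log2 fold 0.95, SE 0.23, adjusted p = 0.0486).

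The 20 mitosis genes of all T-like cells had higher values in CaMKK2 KO mice (median log2 fold 0.40), with 0 called by edgeR. Mki67 had 120, 139, 174 and 182 CPM in WT mice and 273, 299, 286 and 118 CPM in CaMKK2 KO mice, where CaMKK2 KO mouse 4 was below every WT mouse and the other 3 CaMKK2 KO mice above. Stmn1 had 184, 146, 213 and 252 CPM in WT mice and 339, 304, 295 and 251 CPM in CaMKK2 KO mice. Birc5 had 42.04, 47.4, 89.5 and 83.3 CPM in WT mice and 135, 141, 87.0 and 52.3 CPM in CaMKK2 KO mice. Pcna, of the replication genes not called, had 155, 134, 148 and 163 CPM in WT mice and 187, 198, 134 and 181 CPM in CaMKK2 KO mice. These 3 overlapped between the groups. Leaving out WT mouse 2, 3 or 4 or CaMKK2 KO mouse 2 left 0 members called in all T-like cells, and leaving out CaMKK2 KO mouse 1 left 1. limma with equal weight for cells called 0 members and 54 genes in all.

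The makeup of T-like cells differed between the libraries, with CD8 T-like cells making up 398 of 672 in WT and 340 of 884 in CaMKK2 KO mice, and CD4 T-like cells 35 and 169. The 7 TAM markers summed to 182 to 190 CPM in WT and 80.8 to 316 CPM in CaMKK2 KO mice with none at 0, and the 5 NK markers to 178 to 271 and 139 to 273 CPM with none at 0. The 5 ncMono markers did not overlap, at 6.47 to 13.5 CPM in WT and 19.3 to 54.4 CPM in CaMKK2 KO mice with none at 0. The part of these in the results was not tested.

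**Figure D5:**
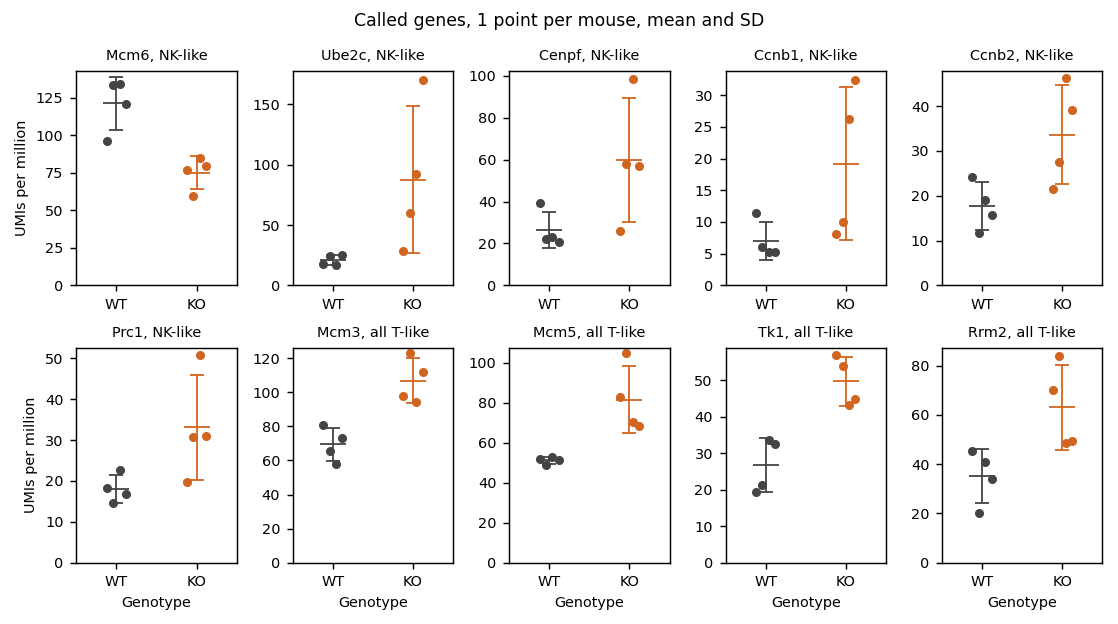
Level (CPM, from 0) of the 6 genes called in NK-like cells and the 4 called in all T-like cells, 1 point per mouse with the mean and SD of 4 WT and 4 CaMKK2 KO mice. Mcm6 falls from 121 to 75.2 CPM on average in NK-like cells and the 5 mitosis genes rise, with Ube2c in CaMKK2 KO mice spread from 28.4 to 170 CPM.

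Whether the genotype difference itself differed between classes was tested with an interaction term over the 8 mice, with mouse as a term. It was larger in all T-like than in TAM-like cells for 34 of 34 members, and 2 of them were called (0.904% of 11951 genes, 0.577% with a larger difference in T-like cells), Stmn1 (log2 difference 1.51, SE 0.34, adjusted p = 0.0483) and Mki67 (log2 difference 1.45, SE 0.29, adjusted p = 0.0268). Here the log2 value is the difference in T-like cells minus that in TAM-like cells. Leaving out CaMKK2 KO mouse 3, which had the highest summed levels of both sets among CaMKK2 KO TAM-like cells, gave 27 called members, while leaving out WT mouse 1, WT mouse 2, CaMKK2 KO mouse 1, 2 or 4 gave 0, and WT mouse 3 or 4 gave 1. For these counts without a mouse, here and in the pairs of classes below, the share of all genes called is not given. Over 13 alternative settings Stmn1 was called in 1 and Mki67 in 7.

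Between NK-like and TAM-like cells 2 members were called (1.79% of 11856 genes, 1.22% with a larger difference in NK-like cells), Cenpf (log2 difference 1.57, SE 0.30, adjusted p = 0.0139) and Mki67 (log2 difference 0.98, SE 0.24, adjusted p = 0.0433). Cenpf was called in 13 of 13 alternative settings, and Mki67 in 2 of 13. Without CaMKK2 KO mouse 3 there were 15 called members, and without WT mouse 1, 2 or 4 or CaMKK2 KO mouse 1 or 2 there was 1.

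Between all T-like and NK-like cells 3 replication genes were called (0.805% of 10806 genes, 0.527% with a larger difference in T-like cells), Mcm5 (log2 difference 0.78, SE 0.17, adjusted p = 0.0364), Mcm7 (log2 difference 1.04, SE 0.25, adjusted p = 0.0491) and Rrm2 (log2 difference 1.54, SE 0.29, adjusted p = 0.0105). The differences of the 14 replication genes were all larger in T-like cells, with a median of 0.86, whereas 13 of 20 mitosis genes were larger in NK-like cells, with a median of -0.11. The count was 0 without WT mouse 2 or 3, 1 without CaMKK2 KO mouse 1, 2 or 4, 5 without WT mouse 1 and 11 when CaMKK2 KO mouse 3 was left out. Over 13 settings Mcm5 and Mcm7 were called in 5 each and Rrm2 in 10. Mcm7 had 97.0, 54.6, 59.7 and 63.8 CPM in WT mice and 84.3, 97.5, 80.4 and 74.7 CPM in CaMKK2 KO mice in all T-like cells. In NK-like cells it had 70.5, 88.9, 85.4 and 52.9 CPM in WT mice and 45.6, 35.8, 63.1 and 43.3 CPM in CaMKK2 KO mice.

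For a single marker, the share of thinned cells with an Mki67 UMI was compared in 12 classes by two-sided exact permutation tests over mice. In all T-like cells it was 10.9% ± 1.68 in WT and 18.1% ± 1.64 in CaMKK2 KO mice, higher in every CaMKK2 KO mouse (exact p = 0.0286, the smallest that 4 mice against 4 can give, adjusted p = 0.171). In TAM-like cells it was 10.3% ± 1.78 and 6.27% ± 2.42 (exact p = 0.0571, adjusted p = 0.171), in NK-like cells 6.45% ± 1.77 and 5.80% ± 3.38 (exact p = 0.743, adjusted p = 0.891). In cMono-like cells it was 2.32% ± 0.97 and 4.11% ± 0.93 (exact p = 0.0571, adjusted p = 0.171). The T-like cells outside the CD8, CD4 and Treg gates had 4.14% ± 3.13 and 16.5% ± 3.47 (exact p = 0.0286, adjusted p = 0.171). No class passed after adjustment. With 12 classes tested, a class at the smallest exact p could pass only if many others reached it too. This outcome was therefore largely set by the number of mice and does not show that the shares are equal. The share was 1.18% of 170 ncMono-like cells, whose median depth was 6937 UMIs against 8915 in all T-like cells. Without thinning, it was 25.5% and 21.4% in TAM-like cells (exact p = 0.343) and 19.9% and 29.5% in all T-like cells (exact p = 0.0286).

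Lists of other genes of the cycle were read beside the members. Of 70 other replication and mitosis genes, all tested in TAM-like cells, 2 had higher and 68 lower values in CaMKK2 KO mice (median log2 fold -0.38), with 0 called. In all T-like cells 65 of 70 had higher values (median 0.39), and 2 were called, Cdc6, which loads the helicase (log2 fold 1.5), and Clspn, a fork protector (0.91). In NK-like cells 41 of 68 had higher values, and the calls were Plk1, the mitotic polo kinase (1.21), and Dut, which clears dUTP (-0.63). These 2 of 68 are a smaller share than the 5.57% of all genes called in NK-like cells, and the 2 of 70 in all T-like cells are near the 1.89% called there.

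The drivers and brakes of the first cell cycle step were called in few classes. In NK-like cells 2 of 13 G1 drivers were called, cyclin D1 (Ccnd1, -1.35) and cyclin E2 (Ccne2, -1.46), both lower in CaMKK2 KO mice. Of 14 brakes tested there, Klf2, a quiescence factor (1.59), and the CDK inhibitor gene Cdkn2d (0.67) were called higher, where 3.70% of all genes were called higher and 1.87% lower. The brake Cdkn2c was called in all T-like cells (0.77), Trp53inp1 in Treg-like (-1.20) and Btg2 in DC2-like cells (-0.67). Between TAM-like and cMono-like cells, 66 of 70 other cycle genes were called higher in TAM-like cells and 1 lower (all genes, 59.9% in either direction). Of 13 G1 drivers 11 were called higher, and 2 drivers, Ccnd3 (-1.30) and E2f2 (-1.07), were called lower. Of 16 brakes tested in this pair, 9 were called lower and 4 higher in TAM-like cells, the latter being Cdkn2c (1.70), Ccng1 (0.43), Cdkn2a (3.16) and Cdkn1c (1.04).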

How the data were processed

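Per the submitters' processing notes, the authors used bcl2fastq 2.20, Cell Ranger 4.0.0, STAR 2.7.5c and build mm10. The deposited files hold raw UMI counts per gene and barcode (6689 WT and 7271 CaMKK2 KO barcodes) with hashtag counts as further features. Hashtags were assigned to mice with HTODemux (Seurat 5.3.0, quantile 0.99). Doublets (667 WT, 508 CaMKK2 KO), negatives (48, 67), cells with fewer than 200 genes and outliers by 3 median absolute deviations in UMIs, genes or mitochondrial percentage (scuttle 1.12.0; 593, 836) were removed. The automatic threshold of Scrublet (scanpy 1.11.5) did not work, so the highest-scoring cells were removed in the number expected from hashtag doublets (227, 174). Cells were gated by a score over marker genes, with a lead of 0.1 over the next class and at least 3 markers. Microglia-like cells were macrophages with at least 5 of 6 microglia markers. T-like cells were split by the presence of any UMI. CD8 T-like cells had Cd8a or Cd8b1 without Cd4 or Foxp3. Treg-like cells had Foxp3, or Cd4 with Il2ra, Ikzf2 and Ctla4, and no CD8 gene. Of the rest without a CD8 gene, CD4 T-like cells had Cd4 or Cd40lg. The scoring rule was set after the data had been seen.

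The UMIs of a class were added up in each mouse, and the quasi-likelihood test of edgeR 4.0.16 was run with total UMIs as library size, for genes with at least 50 UMIs and mice with at least 10 cells of the class, at an adjusted p of 0.05. Class pairs had mouse as a term. Interaction terms and the shares without thinning were added after seeing the data. DESeq2 1.42.0, limma 3.58.1, TMM scaling, other filters, gates and thinning depths, and each mouse left out, were the alternatives. On simulated data with 200 changed genes the test recovered 68.5% in Treg-like to 89.0% in NK-like cells between genotypes, 85.5% to 94.0% between classes, and 53.0%, 55.0% and 60.0% for the interactions. False calls were 2.29% to 6.81%. The simulation gave every gene the same spread between mice and changed only well-counted genes by large folds set in advance. It was not matched to the spread or folds of the members, so these shares do not give the power for them. Total UMIs were 12238561 to 23046670 per mouse, and intervals cover counting error alone.

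The members and gene lists were chosen with earlier results of these data known. Values per mouse are given for every member called between genotypes and, in TAM-like, NK-like and CD8 T-like cells, for the member of each role with the most UMIs; genes of other lists are named when called, at most 6 per comparison. Permutation tests used scipy 1.17.1 under Python 3.11.15, and models ran in R 4.3.3.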

Additional observations from a re-analysis of the deposited data

Results flagged for a closer look

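In groups of 4 mice, a sample far from the others was looked for with Dixon's test, which chance passes in about 1 in 20 groups. It marked 28 of 476 member levels (5.88%) and 8 of 66 shares of cells. Of the 28 levels, 11 were those of CaMKK2 KO mouse 3. Among the shares, the replication cut was passed by 12.9% of microglia-like cells in CaMKK2 KO mouse 3, 5.88% of ncMono-like cells in CaMKK2 KO mouse 1, 8.70% of B-like cells in CaMKK2 KO mouse 4 and 20.2% of CD8 T-like cells in WT mouse 4. The mitosis cut was passed by 1.45% of B-like cells in CaMKK2 KO mouse 4. The share of cells with an Mki67 UMI stood apart at 9.09% of ncMono-like cells in CaMKK2 KO mouse 3, 16.7% of B-like cells in WT mouse 4 and 15.6% of all T-like cells in CaMKK2 KO mouse 4. For the ncMono-like shares and both B-like shares of CaMKK2 KO mouse 4, the other mice of the genotype were at 0. Any value above 0 then passes, so the rate of 1 in 20 does not hold for these. Among the genes called in NK-like cells, WT mouse 1 was the sample apart within its genotype, at 11.4 CPM for Ccnb1 and 39.4 CPM for Cenpf.

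The genotype difference differed between classes by the interaction term for 7 pairs of gene and classes. It was larger in all T-like than in TAM-like cells by 1.51 (log2) for Stmn1 and 1.45 for Mki67, larger in NK-like than in TAM-like cells by 1.57 for Cenpf and 0.98 for Mki67, and larger in all T-like than in NK-like cells by 0.78 for Mcm5, 1.04 for Mcm7 and 1.54 for Rrm2.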

How the results depend on the processing

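The calls between TAM-like and cMono-like cells, and between CD8 T-like and NK-like cells, stayed within 1.5 times of their counts in every setting run. The count of members called between genotypes did not. In NK-like cells the 6 calls became 3 with TMM and 0 with limma on cells of equal weight, and 2 to 6 with a mouse left out. Over all genes, 540 calls became 445 with TMM and 286 with limma. In CD8 T-like cells the 3 calls became 0 with DESeq2, limma or doublets kept (0 to 4 with a mouse left out). Over all genes, 131 calls became 108, 21 and 75 in these fits. In Treg-like cells the 1 call became 0 with limma or outlying cells kept and 6 with doublets kept (0 to 5). Over all genes, 53 calls became 31, 57 and 100. In all T-like cells the 4 calls became 0 with limma (0 to 6), and 187 calls over all genes became 54. In TAM-like cells the count with a mouse left out ran from 0 to 14. Between TAM-like and microglia-like cells the 7 calls became 18 with TMM and 12 with DESeq2 (4 to 12). Over all genes, 6109 calls became 5894 and 5440. Between CD8 T-like and Treg-like cells the 3 became 1 with at least 200 UMIs or outlying cells kept (1 to 4), and 2453 calls over all genes became 2010 and 2458. The interaction between all T-like and TAM-like cells went from 2 to 1 with TMM, DESeq2, at least 200 UMIs or the stricter gate and to 0 with outlying cells kept (0 to 27). Over all genes, 108 calls became 111, 129, 77 and 109, and 103 with outlying cells kept. That between NK-like and TAM-like cells went from 2 to 1 with TMM, DESeq2, at least 200 UMIs or the stricter gate (1 to 15). Over all genes, 212 calls became 170, 126, 164 and 160. That between all T-like and NK-like cells went from 3 to 0 with DESeq2 and 5 with outlying cells kept (0 to 11), and 87 calls over all genes became 43 and 93. The cause was not tested. Counts with a mouse left out stand without the share of all genes called in the same fit, and were not set against it.

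Shares of cells depended on the cut and depth by construction. For replication genes, the median over mice was 18.9%, 27.2% and 27.6% in TAM-like, NK-like and all T-like cells at 2 members, 4.70%, 4.26% and 6.02% at 5 members, 16.8%, 25.5% and 26.9% at 5000 UMIs, and 46.5%, 41.0% and 39.7% without thinning, with 8.35% in NK-like cells at 2000 UMIs. For mitosis genes it was 9.27% in NK-like and 16.6% in all T-like cells at 2 members, 8.64% and 16.2% at 5000 UMIs, and 28.5%, 17.8% and 21.0% without thinning. The difference of the Mki67 share, in percentage points of CaMKK2 KO minus WT, changed sign to -1.28 in ncMono-like cells at 2000 UMIs and to 0.45 in DC2-like, 0.051 in NK-like and -5.41 in Treg-like cells at 5000 UMIs. With a mouse left out it ran from -1.33 to 1.70 in ncMono-like, -4.69 to 0.87 in B-like and -2.25 to 0.37 in NK-like cells. No paired analysis was possible because the 4 mice of a genotype are told apart by hashtags alone and carry no numbers that pair them with mice of the other genotype.

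A member at a few CPM, such as Ccnb1, had 220 UMIs in NK-like cells over 8 mice, and Treg-like and DC2-like cells gave 7 mice, so that differences smaller than the spread between these mice were not detectable.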
